A study of Homo sapiens with 2 samples.

Results

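The secreted WNT antagonists are described here by 10 genes that were chosen by name, *SFRP1*, *SFRP2*, *SFRP4*, *SFRP5*, *FRZB*, *DKK1*, *DKK2*, *DKK3*, *DKK4* and *WIF1*, among the 33538 genes listed in each table. All 10 were found by gene name in both tables. They were measured by single-cell RNA sequencing (scRNA-seq) in HCT116, a human colon cancer cell line grown in McCoy's 5A medium with serum. The libraries were made from cells at day 7 of culture. Decitabine (DAC), at a dose of 0.5 μM, had been given at days 1 and 3 and withdrawn at day 5, and the labels list the same schedule for the mock-treated cells. There was 1 library per condition, so no difference between conditions has a replicate check, and all intervals are 95% intervals for counting error only.

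WNT ligands signal through frizzled receptors and the co-receptors LRP5 and LRP6, which stabilizes β-catenin and lets it act with TCF/LEF factors on their target genes. The SFRP proteins, among them FRZB, and WIF1 bind WNT ligands outside the cell, while DKK1, DKK2 and DKK4 bind LRP5 and LRP6, and DKK3 is a divergent relative for which this binding is not established. Several of these genes are known to be silenced by promoter methylation in colon cancer, DAC removes methylation by trapping the enzymes that copy it at replication, and HCT116 carries a β-catenin mutation that keeps the pathway active downstream of the ligands. *DKK1* and *DKK4* are themselves known TCF/LEF targets.

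The promoters of 6 of the 10 genes (*SFRP2*, *SFRP4*, *SFRP5*, *FRZB*, *DKK1* and *WIF1*) had an entry among RefSeq promoters on GRCh38.p14. CpG sites, where DNA methylation is placed, are in capitals in the 250 bases upstream of the transcription start, which are shown for the 2 of these genes that had UMIs in mock-treated cells (*DKK1*, chr10:52314031-52314280, plus strand, and *FRZB*, chr2:182866638-182866887, minus strand) and for 2 that had none (*SFRP2*, chr4:153789084-153789333, minus strand, and *WIF1*, chr12:65121306-65121555, minus strand).
DKK1: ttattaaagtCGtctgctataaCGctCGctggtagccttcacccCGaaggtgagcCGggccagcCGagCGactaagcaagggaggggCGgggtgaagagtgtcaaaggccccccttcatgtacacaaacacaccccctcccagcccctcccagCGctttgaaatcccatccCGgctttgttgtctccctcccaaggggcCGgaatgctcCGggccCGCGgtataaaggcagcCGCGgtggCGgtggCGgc
FRZB: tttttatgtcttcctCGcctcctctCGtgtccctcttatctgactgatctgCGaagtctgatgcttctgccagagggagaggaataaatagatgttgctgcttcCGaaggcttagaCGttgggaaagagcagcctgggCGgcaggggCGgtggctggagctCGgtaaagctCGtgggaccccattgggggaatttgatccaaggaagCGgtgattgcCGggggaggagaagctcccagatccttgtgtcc
SFRP2: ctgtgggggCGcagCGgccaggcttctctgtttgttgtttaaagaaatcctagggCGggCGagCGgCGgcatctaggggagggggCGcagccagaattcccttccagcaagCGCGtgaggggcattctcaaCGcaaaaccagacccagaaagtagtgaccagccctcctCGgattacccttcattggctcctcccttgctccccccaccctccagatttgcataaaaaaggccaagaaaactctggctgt
WIF1: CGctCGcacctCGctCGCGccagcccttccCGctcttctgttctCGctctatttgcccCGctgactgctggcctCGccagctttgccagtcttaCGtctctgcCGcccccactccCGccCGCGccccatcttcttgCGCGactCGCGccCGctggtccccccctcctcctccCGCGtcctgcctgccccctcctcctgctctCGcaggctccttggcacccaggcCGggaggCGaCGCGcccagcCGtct
CpG sites numbered 18 in *DKK1*, 11 in *FRZB*, 11 in *SFRP2* and 27 in *WIF1*, and 17 in *SFRP4* and 21 in *SFRP5*, which are not shown. Over 35116 promoters of the same length, the median was 11 CpG sites and the quartiles were 3 and 23. The counts of both genes with mock UMIs lay within the range of the 4 genes without, from 11 to 27. The letters CTTTGTT, a form of the TCF/LEF motif, were found on either strand in *DKK1* and in none of the other 5 windows, and 4.50% of all promoters held them. The letters CTTTGAT were in none of the 6 windows and in 2.26% of all promoters. These are matches of letters and not measured binding, and DNA methylation was not measured in these libraries.

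The mock-treated library held 49911689 unique molecular identifiers (UMIs, each marking 1 captured transcript molecule) in 1783 cells, with a median of 27899 per cell, and the DAC-treated library held 59046165 in 1751 cells, with a median of 35340. A single UMI corresponded to 0.0200 CPM, the usual scaling to the total of a library, in mock-treated cells and to 0.0169 CPM in DAC-treated cells. More than 50% of UMIs were mitochondrial in 311 mock-treated and 319 DAC-treated cells, and 12 barcodes occurred in both libraries. The epithelial markers *EPCAM*, *KRT8*, *KRT18*, *KRT19* and *CDH1* were detected in both libraries, at 4934 and 7952 CPM in sum. *KRT8* had 1094 and 1895 CPM, *KRT18* 2030 and 4280 and *KRT19* 1439 and 1534, while *EPCAM* had 349 and 222 CPM (85.7% and 77.1% of cells) and *CDH1* 23.1 and 21.1 CPM (38.0% and 31.8% of cells). Markers of other cell types summed to 17.1 and 28.9 CPM, and of these 5 genes *PTPRC*, *PECAM1* and *COL1A2* were without a UMI in the mock-treated library and had 16, 46 and 9 with DAC. *COL1A1* had 533 and 1112 UMIs and *CD68* had 321 and 525. The part of these marker genes in the values of the antagonists was not tested.

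UMIs of 3 of the 10 antagonists were found without DAC and of 8 with DAC. *DKK1* was abundant in both. *SFRP1* went from 0 UMIs to 525, and *DKK4* from 0 to 121. *SFRP2*, *SFRP5*, *WIF1*, *DKK3* and *FRZB* were at 43 UMIs or fewer in every library, and *SFRP4* and *DKK2* had none in either. The 10 genes together had 4958 UMIs in mock-treated and 12397 in DAC-treated cells, of which *DKK1* made up 99.5% and 94.1%. Molecules were tagged at their 3′ ends, so these UMI counts do not scale with transcript length.

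**Figure D1:**
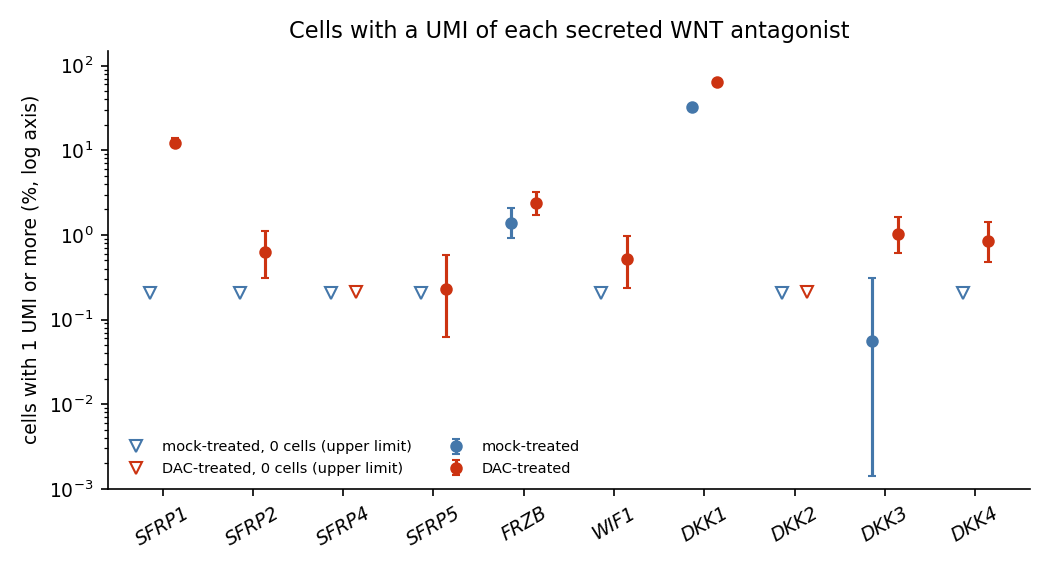
Share of cells with at least 1 UMI of each antagonist, in percent on a log axis, in mock-treated and DAC-treated cells. Bars are exact 95% intervals and triangles are upper limits of genes without a UMI. *DKK1* was at 32.2% and 63.4%, *SFRP1* at 12.3% of DAC-treated cells, and the other genes were at 2.40% or less.

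Among the SFRP genes, *SFRP1* (ENSG00000104332, chr8:41261962-41309473, minus strand, hg38) had the most UMIs in DAC-treated cells. No UMI was found in 1783 mock-treated cells (0%, exact upper limit 0.207%), against 525 UMIs (interval 481 to 572) in 216 DAC-treated cells, or 12.3% (10.8% to 13.97%), with a mean of 2.43 UMIs in these cells. The CPM was therefore at least 148-fold higher with DAC, set against a floor of 3 counts over the mock-treated library. The *SFRP1* UMIs were spread unevenly over cells. Of the 216 cells, 136 had 1 UMI, 45 had 3 or more, 7 had 10 or more, and the highest had 37. The 5 cells with the most held 124 of the 525 UMIs, or 23.6%. If each DAC-treated cell drew *SFRP1* at the same share of its UMIs, 1329 cells would have had none, while 1535 had none.

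*SFRP2* (ENSG00000145423, chr4:153780591-153789083, minus strand) had 12 UMIs with DAC and 0 without, in 11 cells or 0.628% (0.314% to 1.12%), with 2 in the highest cell. Its CPM was at least 3.38-fold higher in all cells and at least 1.85-fold in cells with 20% mitochondrial UMIs or less. The latter lower bound does not reach the 2-fold line. *SFRP5* (ENSG00000120057, chr10:97766751-97771999, minus strand) had 0 and 4 UMIs, in 4 cells or 0.228% (0.0623% to 0.584%). Its ratio was at least 1.13, and at least 0.955 with median-of-ratios scaling, so a higher level was not shown at this depth. *SFRP4* (ENSG00000106483, chr7:37905932-38025695, minus strand) had 0 UMIs in both libraries. The exact upper limits, 0.207% of mock-treated and 0.210% of DAC-treated cells, apply to cells with a captured UMI and not to cells that express the gene. The opposite-strand gene *EPDR1*, which overlaps *SFRP4*, had 199 and 511 UMIs. *FRZB* (ENSG00000162998, chr2:182833275-182866637, minus strand) differed from the other 4 in having UMIs in mock-treated cells. It had 25 UMIs in 25 mock-treated cells, or 1.40% (0.909% to 2.06%), and 43 UMIs in 42 DAC-treated cells, or 2.40% (1.73% to 3.23%). The CPM ratio of 1.45 had an interval of 0.868 to 2.48, which includes 1, so the libraries were not told apart in *FRZB* by UMI sums. The mean of per-cell CPM gave a ratio of 2.46, and UMI sums in cells with 20% mitochondrial UMIs or less gave 2.14. Median-of-ratios scaling gave 1.23, and cells with 10000 UMIs or more and 50% mitochondrial UMIs or less gave 1.38. The cause of these differences was not tested.

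*WIF1* (ENSG00000156076, chr12:65050626-65121305, minus strand) had 9 UMIs with DAC and 0 without, each in a different cell, or 0.514% (0.235% to 0.973%) of cells. Its CPM was at least 2.54-fold higher in all cells and at least 1.48-fold in cells with 20% mitochondrial UMIs or less. For *SFRP2*, *SFRP5*, *FRZB*, *DKK3* and *WIF1*, the cells without a UMI in the DAC-treated library numbered 1740, 1747, 1709, 1733 and 1742, and an even share in every cell would give 1739, 1747, 1709, 1733 and 1742. A low level in all cells, free RNA in the droplets and expression in a few cells cannot be told apart for these genes. No cell type that lacks the antagonists is present in a cell line, so the mock-treated library is the only background against which they were read.

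Among the DKK genes, *DKK1* (ENSG00000107984, chr10:52314281-52318042, plus strand) was present in mock-treated cells and was found in about 2-fold more of the DAC-treated cells. It had 4932 UMIs (4795 to 5072) in 574 mock-treated cells, or 32.2% (30.03% to 34.4%). It had 11665 UMIs (11454 to 11879) in 1110 DAC-treated cells, or 63.4% (61.1% to 65.7%). The ratio of CPM, 98.8 to 197.6, was 1.9993 with an interval of 1.93 to 2.07, so it lay at the 2-fold line and its interval covers both sides of it. The share of cells differed more than the amount per positive cell, with a ratio of shares of 1.97 and a ratio of mean UMIs per positive cell of 1.22 (8.59 and 10.5). The median per positive cell was 3 and 5 UMIs, and the highest cell had 69 and 140. Cells with 3 or more UMIs were 17.2% and 42.6%, and cells with 10 or more UMIs were 9.14% (7.84% to 10.6%) and 21.0% (19.1% to 22.9%). The 10% of cells with the most *DKK1* held 81.1% of its UMIs in mock-treated and 55.5% in DAC-treated cells. *DKK1* UMIs were uneven in both libraries, with 1209 mock-treated cells without a UMI against 376 for an even share, and 641 DAC-treated cells against 319. The antisense gene *PRKG1-AS1*, which overlaps *DKK1* on the opposite strand, had 19 and 20 UMIs.

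**Figure D2:**
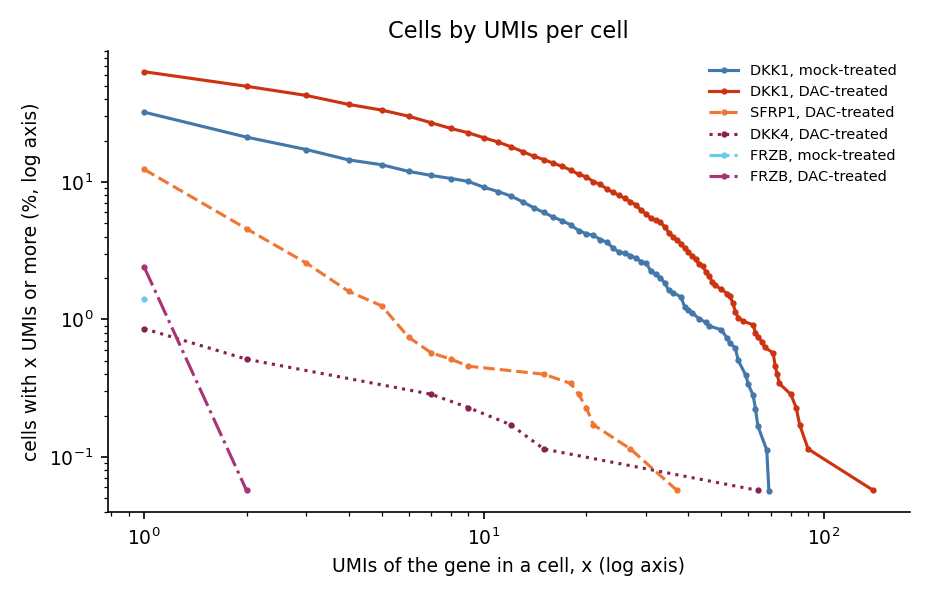
Percent of cells at or above a number of UMIs per cell, on log axes. *DKK1* and *FRZB* are drawn for mock-treated and DAC-treated cells, and *SFRP1* and *DKK4*, without a mock UMI, for DAC-treated cells only. The *DKK1* curve of DAC-treated cells is above that of mock-treated cells throughout, reaching 140 against 69 UMIs, and the *DKK4* curve is flat and long, reaching 64 UMIs with 15 cells in all.

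*DKK4* (ENSG00000104371, chr8:42374063-42377229, minus strand) had most of its UMIs in a few cells, with a mean of 8.07 UMIs per positive cell. Without DAC it had 0 UMIs and with DAC 121, in 15 cells or 0.857% (0.480% to 1.41%), so its CPM was at least 34.1-fold higher. A single cell, with 28707 UMIs in all and 0 UMIs of *DKK1*, held 64 of them. The next 4 cells had 15, 12, 9 and 7, so 5 cells held 107 of the 121 UMIs, or 88.4%, and the other 10 cells had 1 or 2. An even share would have left 1636 cells without a UMI, while 1736 had none. Without the cell with the most UMIs, an alternative chosen after seeing the data, the *DKK4* ratio was at least 16.1.

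*DKK3* (ENSG00000050165, chr11:11956207-12009769, minus strand) had 1 UMI in mock-treated and 18 in DAC-treated cells, each in a different cell (1.03%, 0.610% to 1.62%). The ratio was 15.2, with an interval of 2.40 to 634 that rests on the single mock UMI. In cells with 20% mitochondrial UMIs or less it was at least 4.06, set against the floor of 3 counts. This lower bound does not show a smaller ratio. The overlapping gene *USP47* on the opposite strand had 1445 and 2011 UMIs, and whether strand was used in counting is not given in the sources used here. *DKK2* (ENSG00000155011, chr4:106921802-107283806, minus strand) had 0 UMIs in both libraries.

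Depth differed between the libraries, so shares were also compared after thinning each cell to 10000 UMIs, which left out 395 of the mock-treated and 458 of the DAC-treated cells. The *DKK1* share was then 25.8% and 56.5%, with a ratio of 2.19. The thinned *SFRP1* share was 5.64% of DAC-treated cells, and the thinned *FRZB* share was 0.630% of mock-treated and 0.744% of DAC-treated cells. In cells with 10000 UMIs or more and 50% mitochondrial UMIs or less, *DKK1* was in 40.0% of 1298 mock-treated and 82.2% of 1120 DAC-treated cells, and *SFRP1* in 0 and 18.0%. In the deep *DKK1*-positive cells the level per 10000 UMIs had a median of 1.02 and 1.35 and an upper quartile of 3.41 and 3.25, so the levels of the positive cells overlapped widely between libraries.

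**Figure D3:**
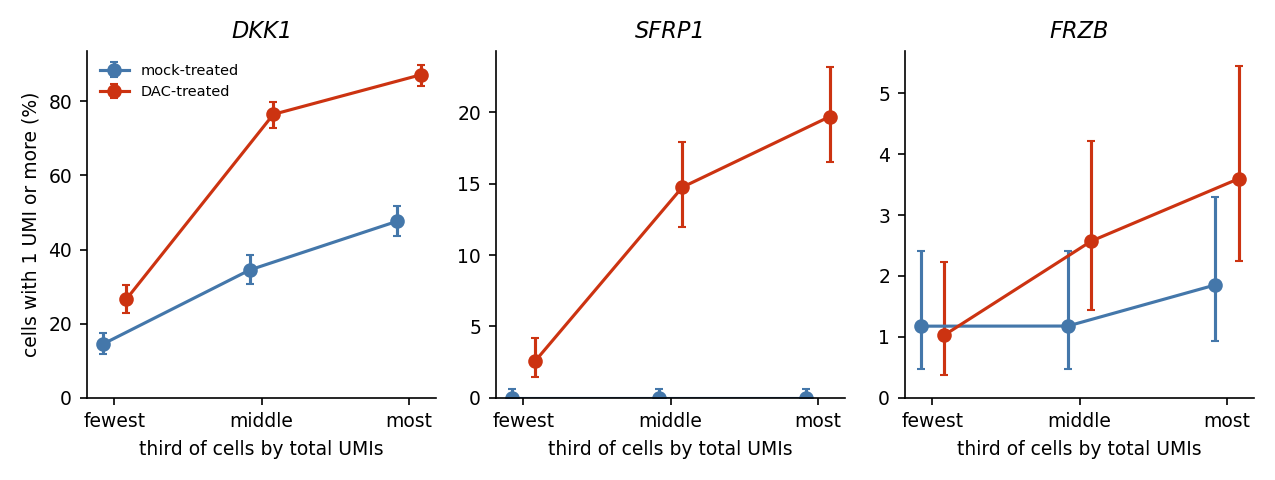
Share of cells with *DKK1*, *SFRP1* or *FRZB*, in percent, by 3 groups of cells of similar size with the fewest, intermediate and most total UMIs within each library, with exact 95% intervals. *DKK1* was higher in DAC-treated cells in each group, from 14.5% and 26.5% in the shallow group to 47.6% and 87.2% in the deep group, but the groups were not matched in depth between libraries.

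By total UMIs, cells were split within each library into 3 groups of about the same size. The median totals were 7375, 27899 and 44328 UMIs in mock-treated and 2179, 35340 and 59101 in DAC-treated cells, so shares in the plot by depth do not compare cells of equal depth, and levels per 10000 UMIs are given here. The *DKK1* level per 10000 UMIs in the group with the fewest UMIs was 0.695 in mock-treated and 1.502 in DAC-treated cells, a ratio of 2.16 (1.87 to 2.51). The ratio was 1.93 (1.82 to 2.04) in the middle group and 1.99 (1.90 to 2.08) in the group with the most. Cells with more than 50% mitochondrial UMIs had 0.301 and 1.08 *DKK1* UMIs per 10000, a ratio of 3.60 (2.81 to 4.68), and 10.3% and 42.3% of them had *DKK1*. *DKK1* was thus higher with DAC in each depth group. The *SFRP1* share of DAC-treated cells was 2.57%, 14.8% and 19.7% from the fewest to the most UMIs, and the *FRZB* share was 1.03%, 2.57% and 3.60%. These levels per 10000 UMIs did not rise in the same way. In the same order they were 0.0623, 0.105 and 0.0824 for *SFRP1*. For *FRZB* they fell, at 0.0208, 0.00805 and 0.00579, from 6, 16 and 21 UMIs.

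Antagonists were also counted per cell. At least 1 of the 10 was detected in 591 mock-treated cells, or 33.1% (31.0% to 35.4%), and in 1163 DAC-treated cells, or 66.4% (64.2% to 68.6%). Without *DKK1*, the numbers were 26 cells, or 1.46% (0.955% to 2.13%), and 294 cells, or 16.8% (15.1% to 18.6%). With 3 or more UMIs of an antagonist other than *DKK1*, there were 0 mock-treated and 50 DAC-treated cells (2.86%). A pair of antagonists in the same cell was seen in 9 mock-treated cells, and in the DAC-treated cells 222 had 2 antagonists, 17 had 3 and 2 had 4.

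Co-detection was counted for the 28 pairs of the 8 genes found in DAC-treated cells, of which 18 pairs occurred together in at least 1 cell. *SFRP1* and *DKK1* were together in 177 cells (152 to 205), against 136.9 from the product of their shares, a ratio of 1.29. Cells with more UMIs hold more of both genes, and within the 3 depth groups the product gave 170.0 cells, a ratio of 1.04 (0.893 to 1.21). *FRZB* and *DKK1* were together in 35 cells against 31.4 within depth groups, and *DKK1* and *DKK4* in 12 against 12.4. *SFRP1* and *DKK4*, which lie 1.06 Mb apart, were together in 2 cells against 2.66. For 28 of 28 pairs the interval within depth groups included the product, and without depth groups it did for 26. The groups are wide and cells within them still differ in depth, so depth was matched only in part, and the counts of most pairs are too low to show a moderate difference. In mock-treated cells *FRZB* and *DKK1* were together in 8 cells against 8.67.

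The *DKK1* level was compared between DAC-treated cells with and without *SFRP1*. In the depth group with the most UMIs, *DKK1* was in 90.4% (83.5% to 95.1%) of 115 cells with *SFRP1* and in 86.4% (82.9% to 89.3%) of 469 cells without, at 2.39 and 1.88 UMIs per 10000. In the middle group the shares were 77.9% and 76.3%, at 2.94 and 1.86 UMIs per 10000. The intervals of these shares overlapped. The 12407 other genes without a mock UMI, 4300 of which had a DAC UMI, were summed per cell as UMIs per 10000. In the group with the most UMIs their median was 23.1 in cells with *SFRP1* and 17.0 in cells without, and in the middle group it was 21.1 and 16.4. The quartiles overlapped, at 15.9 to 36.3 and 11.8 to 24.98 in the group with the most UMIs. For *DKK1* the medians were 17.8 with and 19.1 without in the group with the most UMIs, and 17.0 and 17.1 in the middle group. In the group with the fewest UMIs depth was not matched, as the 15 cells with *SFRP1* had 8762 UMIs at the median and those without had 1956. There the *DKK1* level went the other way, at 1.11 UMIs per 10000 with *SFRP1* and 1.52 without, and the other genes had medians of 24.9 and 18.8. For cells with and without *DKK1* in this group, with 8817 and 1142 UMIs at the median, the medians of the other genes were 17.0 and 20.5. These are descriptions of cells of 1 library, with no test.

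The count of antagonists past a 2-fold ratio was read against all genes with 10 UMIs or more over both libraries, 19130 in number. Of the 10 antagonists, 6 passed this limit (*SFRP1*, *SFRP2*, *FRZB*, *DKK1*, *DKK3* and *DKK4*), and *SFRP1*, *SFRP2*, *DKK3* and *DKK4* passed it through the DAC-treated library, so they had to be higher there. A ratio of 2 or more in the direction of DAC was seen in 4 of 6, and in 25.4% of all genes tested. The same ratio in the direction of mock was seen in 0 of 6, and in 8.39% of all genes tested. Having 0 mock UMIs and 10 or more with DAC held for 3 of 6 (*SFRP1*, *SFRP2* and *DKK4*), and for 5.92% of all genes tested. Having 3 UMIs or more in some DAC-treated cell and in no mock-treated cell held for 2 of 6 (*SFRP1* and *DKK4*), and for 14.2% of all genes tested. In cells with 20% mitochondrial UMIs or less, the lower bound of *SFRP2*, 1.85, did not reach the 2-fold line, so its ratio was not placed on either side. The ratios of *FRZB* and *DKK1* in these cells, 2.14 and 2.17, were over the line. With 6 genes these shares are no result about the antagonists as a group. The median log2 CPM ratio of all genes tested was 0.32, and median-of-ratios scaling lowers every log2 ratio by 0.24.

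**Figure D4:**
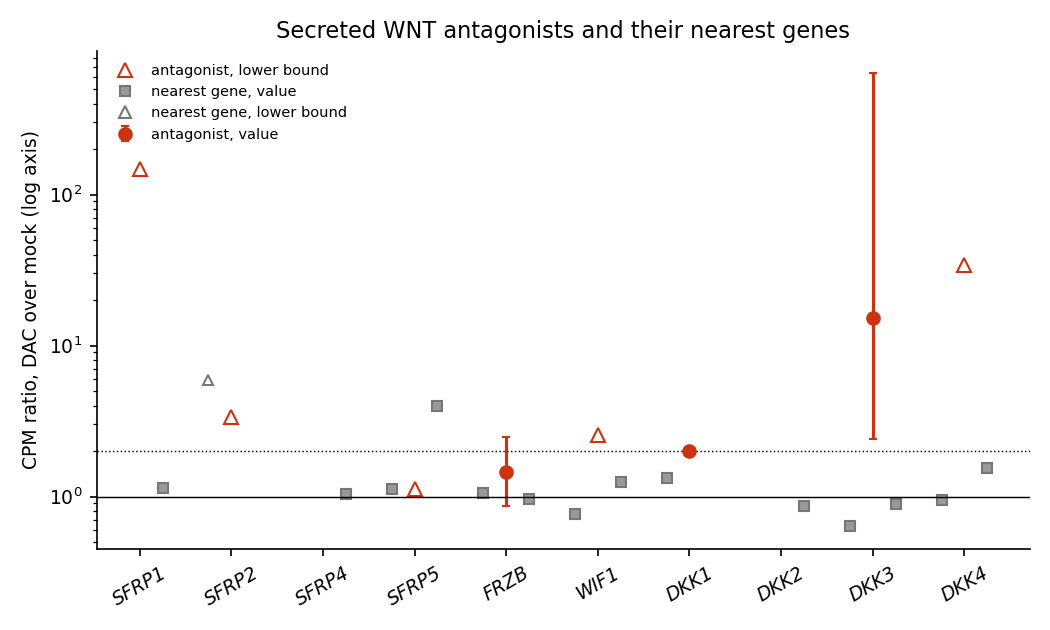
CPM ratio of DAC-treated over mock-treated cells on a log axis for the antagonists (red, with exact 95% intervals where both libraries had UMIs) and their nearest protein-coding genes (gray). Triangles are lower bounds of genes without a mock UMI, the solid line marks equal CPM and the dotted line marks 2-fold. *SFRP1* is at a bound of 148, *DKK1* at 1.9993, and the neighbors *RNF175* and *GOLGA7B* are past 2-fold.

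The genes next to the antagonists were compared in the same way. Of 20 nearest protein-coding genes on either side, 15 were tested, 2 were past 2-fold higher and 0 lower, against 25.4% higher and 8.39% lower among all genes tested. With 15 genes, these counts are no result about the neighbors. *RNF175*, 20.6 kb from *SFRP2*, had 0 and 21 UMIs, or at least 5.92-fold higher, and *GOLGA7B*, 77.8 kb from *SFRP5*, had 47 and 221, a ratio of 3.97 (2.89 to 5.57). *GOLGA7*, next to *SFRP1*, had a ratio of 1.14, *POLB*, 2.25 kb from *DKK4*, had 0.953, and *VDAC3*, on its other side, had 1.55. *PRKG1*, next to *DKK1*, had 1.32 (0.778 to 2.27), *DNAJC10* and *NCKAP1*, next to *FRZB*, had 1.05 and 0.969, and *MICAL2* and *GALNT18*, next to *DKK3*, had 0.893 and 0.636. *LEMD3* and *TBC1D30*, next to *WIF1*, had 1.25 and 0.766, *ZFYVE27*, 5.84 kb from *SFRP5*, had 1.12, *STARD3NL*, next to *SFRP4*, had 1.04 and *PAPSS1*, next to *DKK2*, had 0.860. The other 5 neighbors, *ZMAT4*, *DCHS2*, *NME8*, *MBL2* and *GIMD1*, had 2 UMIs or fewer over both libraries.

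The rest of the WNT pathway was taken from lists of ligands, receptors, other antagonists and targets, 71 genes in all, of which 60 were tested. Of these, 23 were 2-fold or more higher in DAC-treated cells (38.3%, against 25.4% of all genes tested) and 3 were lower (5%, against 8.39%). Several of the 23 reached 10 UMIs through the DAC-treated library and so had to be higher there, namely *WNT2*, *WNT11*, *FZD8*, *SOSTDC1*, *TRABD2B*, *IGFBP4*, *SOX17*, *ASCL2* and *LEF1*, which had 4 mock UMIs or fewer. The shares are therefore a description and no result about the pathway or any of its lists. The ligand list had 14 of 19 genes tested, 7 of them higher and 1 lower, with a median log2 ratio of 0.90. *WNT5B* had 5 and 373 UMIs, a ratio of 63.1 (26.8 to 195), and *WNT11* a ratio of 15.0, *WNT7A* 4.56, *WNT9A* 4.41, *WNT6* 2.52 and *WNT7B* 2.29. *WNT2*, with 2 and 9 UMIs, had a ratio of 3.804 and an interval of 0.787 to 36.2, which includes 1. *WNT16* was 10.7-fold lower, with 1982 and 220 UMIs. The receptor list had 18 of 20 genes tested, 2 higher and 0 lower, with a median of 0.24. *FZD9* had a ratio of 4.26 and *FZD8*, with 1 and 20 UMIs, of 16.9 (2.70 to 701). *LRP5* and *LRP6*, the co-receptors bound by DKK1, had ratios of 0.859 and 1.17, and *KREMEN1* and *KREMEN2*, which help DKK1 remove LRP6 from the surface, had 1.25 and 1.48.

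The counts of the remaining lists stand against the same 25.4% higher and 8.39% lower among all genes tested, and are too small to be a result about a list. Other secreted or membrane antagonists had 8 of 11 genes tested, 4 higher and 0 lower, with a median log2 ratio of 0.86. *IGFBP4*, which binds the WNT receptors, had 0 and 182 UMIs, or at least 51.3-fold higher. *SOSTDC1*, an antagonist that binds LRP6, was at least 7.04-fold higher, and the ratios of *NOTUM* and *TRABD2B*, enzymes that inactivate WNT ligands, were 2.11 (1.89 to 2.36) and 2.75 (0.849 to 11.6), the latter from 4 and 13 UMIs. Intracellular antagonists had 11 of 12 tested, 5 higher and 0 lower, with a median of 0.67. *AXIN2*, a scaffold that degrades β-catenin, was 8.19-fold higher (6.30 to 10.8), *DACT3* 4.19-fold, *DACT1* 4.05-fold and *NKD1* 2.69-fold, and *SOX17* was at least 7.89-fold higher. Known TCF targets had 14 of 15 tested, 8 higher and 2 lower, with a median of 1.24. *ASCL2* and *LEF1* had no mock UMI and were at least 20.01-fold and 5.07-fold higher, while *SP5*, *EPHB3* and *CCND1* had ratios of 7.76, 3.13 and 2.66. *MYC* and *CD44* were lower, with ratios of 0.451 and 0.448. Their relation to the antagonists was not tested, and the lists share *AXIN2*, *NKD1*, *NOTUM*, *RNF43*, *ZNRF3* and *LGR5*.

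**Figure D5:**
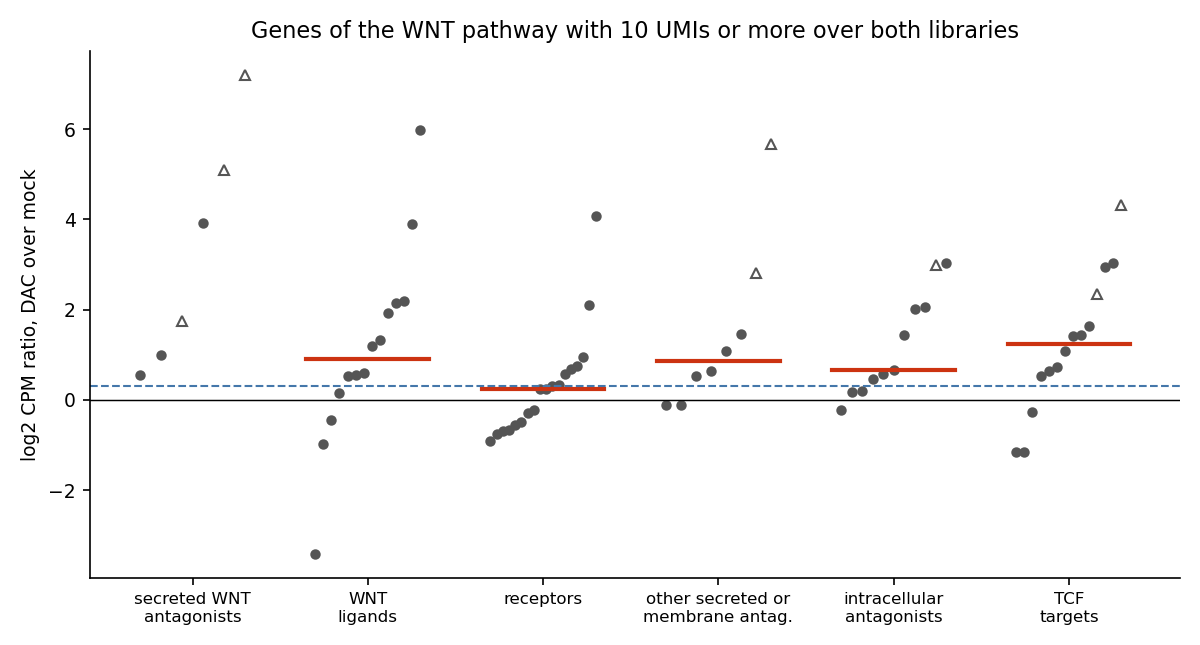
Log2 CPM ratio, DAC-treated over mock-treated cells, of the genes of each WNT pathway list and of the antagonists, with lower bounds as triangles. Red lines are list medians and the dashed blue line is the median of all genes tested, at 0.32. The list medians were 0.90 for ligands, 0.24 for receptors, 0.86 for other antagonists, 0.67 for intracellular antagonists and 1.24 for TCF targets.

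Genes most alike in pattern were listed for *SFRP1* and *DKK1*, the antagonists with 50 or more positive DAC-treated cells, by Pearson's r of log2 levels over 1120 deep DAC-treated cells and 17073 genes. The nearest to *SFRP1* were *SLC16A8*, *SYCP2* and *NEDD9*, at r of 0.21 each. The nearest to *DKK1* were *NR2F2* at 0.25, *TNFRSF12A* at 0.22 and *F3* at 0.20. These are weak correlations in sparse counts of 1 library and are no finding.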

How the data were processed

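HCT116 cells, mock-treated or treated with DAC, were profiled in 1 library per condition. Per the labels, Cell Ranger and hg38 were used by the authors, who deposited raw UMI counts for each cell as whole numbers (the annotation release is not given in the sources used here). Computations were made in Python (version 3.11.15) with pandas (version 2.3.3), scipy (version 1.17.1) and numpy (version 2.4.6), and figures with matplotlib (version 3.10.9).

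All deposited cells were used. UMIs were summed per library and scaled to its total (CPM). Cells of 1 library are not replicates, so no test between conditions was made. Shares have exact Clopper-Pearson, UMI sums exact Poisson, and CPM ratios exact conditional binomial intervals. A gene without a mock UMI was set against a floor of 3 counts over the library. Doublets were not called, and dropping the deepest 5% of cells was tried in place of a caller. The text names all 10 antagonists, pathway genes past 2-fold, nearest neighbors and, for antagonists with 50 or more positive DAC-treated cells, the 3 genes most alike. *LRP5*, *LRP6*, *KREMEN1*, *KREMEN2* and the overlapping genes *EPDR1*, *USP47* and *PRKG1-AS1* were added after their values were seen. The antagonists and lists were chosen with earlier results of these data known. Other alternatives were limits on mitochondrial UMIs and depth, removal of shared barcodes, thinning to 10000 UMIs, other UMI thresholds and filters, scaling by median of ratios and averaging CPM over cells. Leaving out the cell with the most UMIs of a gene was chosen after seeing the data. The computations were tested on simulated data. Gene positions were taken from GENCODE and promoters from RefSeq.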

Additional observations from a re-analysis of the deposited data

How the results depend on the processing

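The *SFRP1* ratio bound was 112.7 in cells with 20% mitochondrial UMIs or less, 124.5 without the 5% of cells with the most UMIs, and 125.4 with median-of-ratios scaling. The *DKK1* ratio was 2.17, 1.69 and 1.89 in cells with 20% mitochondrial UMIs or less, with median-of-ratios scaling and by averaging CPM over cells. The share of mock-treated cells with an antagonist was 37.8% and 40.9% with 20% mitochondrial UMIs or less and in deep cells (10000 UMIs or more, 50% mitochondrial or less), 26.4% thinned to 10000 UMIs, 21.2% and 17.2% at 2 and 3 UMIs, and 1.46% without *DKK1*. The share of DAC-treated cells was 86.0% in deep cells, 59.3% thinned, 51.1% and 43.5% at 2 and 3 UMIs, and 16.8% without *DKK1*. The ratio of *DKK1* and *SFRP1* co-detection to the product was 1.02 in deep cells and 1.04 within depth groups. Antagonists past 2-fold were 2 at 50 UMIs or more, those without a mock UMI were 5 at 1 UMI or more, and WNT pathway genes 2-fold lower were 5 under both other scalings. The cause was not tested. None reversed direction. Of the alternatives for these comparisons, 46 stayed close to the reported value and 23 moved. Among those that stayed close, WNT pathway genes 2-fold higher were 21 with median-of-ratios scaling and 24 by averaging CPM over cells. In cells with 20% mitochondrial UMIs or less the lower bounds of *SFRP2*, *WIF1* and *DKK3* were 1.85, 1.48 and 4.06, and no *SFRP5* UMI was left. The mean of per-cell CPM gave no ratio for genes at 0 in a library. No paired analysis was possible because each condition had 1 library.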

Other observations

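The 12 barcodes found in both libraries held 109 *DKK1* UMIs in the mock-treated and 8 in the DAC-treated library, and none of the other antagonists had a UMI in them.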
